A study of Mus musculus with 2 samples.

Results

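Type I interferon-stimulated genes were followed through the cell types of mouse cholangiocarcinoma (CCA) livers that were depleted of YAP/TAZ and then treated with PBS or with an anti–PD-1 antibody. The genes were taken by name, with earlier results of these data known: *Isg15*, *Ifit1*, *Ifit2*, *Ifit3*, *Mx1*, *Oasl2*, *Rsad2*, *Irf7*, *Usp18* and *Ifi44*. Of these 10 genes, 9 were measured among the 32589 genes listed. *Mx1* had no row in the gene tables used here and has no value below. RefSeq lists mouse *Mx1* on GRCm38 as a transcribed pseudogene. Tumors were started by hydrodynamic tail vein injection (HDTVI), which delivers DNA to hepatocytes, here encoding myr-AKT, a membrane-bound form of AKT, and NICD, the active part of a Notch receptor. In both groups doxycycline switched on shRNAs that target *Wwtr1* (which encodes TAZ) and *Yap1* through CAG-rtTA3, a transactivator made in the whole body, so the depletion was meant for tumor, stromal and immune cells alike. The shRNAs were induced on day 25. The shYT_antiPD1 library came from animals injected with anti–PD-1 (clone RMP1-14) on days 26, 29 and 32, and the shYT_PBS library from animals given PBS, and both were analyzed on day 33. Each group was 1 single-cell library, and the labels give neither the number, the sex nor the age of the animals, nor which shYT line was used. The study states a group size for this experiment, but the files do not tie cells to animals. There is therefore no replicate and no test. The intervals of levels, ratios and shares below are 95% intervals for counting error only, and a difference between the libraries cannot be told apart from a difference between the animals or preparations behind them.

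Type I interferons are secreted when cells sense foreign or misplaced nucleic acids. They bind the receptor chains IFNAR1 and IFNAR2, the kinases JAK1 and TYK2 are then activated, and a complex that holds STAT2 and IRF9 binds the interferon-stimulated response element (ISRE) in target promoters. Interferon-γ, the product of activated T and NK cells, acts through its own receptor on the gamma-activated site (GAS), and many genes respond to both interferons.

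Promoters are shown first because a core of the element that gives the response its name can be read in some of them. RefSeq windows of GRCm38.p6 were at hand for 8 genes (9 windows, since *Ifit2* has 2), each running from 250 bases before to 50 bases after the start of transcription. The search was for GAAANNGAAA and its reverse complement TTTCNNTTTC, a core of the ISRE. A match was found for 4 of the 8 genes and not in the windows of *Ifit2*, *Oasl2*, *Irf7* and *Ifi44*, whereas 3.44% of the 32851 mouse promoter windows of this length hold one. Only exact matches were counted, so a window without one may still hold a variant of the element. The palindrome TTCNNNGAA, a core of the GAS, was found in 1 *Ifit2* window and in 8.30% of all windows. The 2 motifs do not contain each other. The matching windows are chr4:156200769-156201068 (minus strand) for *Isg15*, chr19:34640639-34640938 (plus) for *Ifit1*, chr19:34583279-34583578 (plus) for *Ifit3* and chr12:26456403-26456702 (minus) for *Rsad2*. They are printed 5′ to 3′, with the ISRE letters in capitals.
Isg15: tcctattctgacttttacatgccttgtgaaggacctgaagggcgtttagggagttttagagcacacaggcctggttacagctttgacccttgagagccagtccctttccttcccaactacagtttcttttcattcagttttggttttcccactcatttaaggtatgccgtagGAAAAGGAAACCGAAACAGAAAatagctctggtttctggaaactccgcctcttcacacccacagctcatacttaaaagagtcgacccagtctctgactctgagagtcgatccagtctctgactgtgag
Ifit1: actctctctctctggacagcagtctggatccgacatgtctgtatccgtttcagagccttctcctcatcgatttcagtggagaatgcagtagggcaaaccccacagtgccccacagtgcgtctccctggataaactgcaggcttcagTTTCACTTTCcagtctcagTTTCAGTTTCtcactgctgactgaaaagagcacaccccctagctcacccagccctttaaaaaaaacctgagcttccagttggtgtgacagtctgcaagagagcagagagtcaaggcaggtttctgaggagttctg
Ifit3: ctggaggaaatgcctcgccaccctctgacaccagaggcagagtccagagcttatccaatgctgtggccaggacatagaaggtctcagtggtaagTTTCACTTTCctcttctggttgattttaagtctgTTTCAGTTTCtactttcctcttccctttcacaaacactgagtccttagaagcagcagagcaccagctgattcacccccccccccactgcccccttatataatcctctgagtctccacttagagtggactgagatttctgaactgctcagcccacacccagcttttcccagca
Rsad2: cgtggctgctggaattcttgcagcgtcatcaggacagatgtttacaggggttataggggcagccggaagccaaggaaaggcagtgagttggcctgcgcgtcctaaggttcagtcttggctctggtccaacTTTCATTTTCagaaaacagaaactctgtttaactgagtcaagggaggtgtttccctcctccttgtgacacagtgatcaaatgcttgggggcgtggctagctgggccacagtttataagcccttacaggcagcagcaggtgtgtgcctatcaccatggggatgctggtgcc

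In *Isg15*, 3 overlapping matches begin 78, 72 and 66 bases before the start of transcription and make 1 continuous stretch. *Ifit1* holds a pair of separate matches, 104 and 85 bases before the start, and *Ifit3* a pair at 156 and 122 bases. *Rsad2* holds 1, at 120 bases. These windows differ in the number and spacing of the motif, and a match of letters does not show that a factor binds there. *Ifit1*, *Ifit2* and *Ifit3* lie near one another on chromosome 19, within 34550694 to 34650009 (GENCODE vM21, GRCm38). The other genes are spread over chromosomes 3 (*Ifi44*), 4 (*Isg15*), 5 (*Oasl2*), 6 (*Usp18*), 7 (*Irf7*) and 12 (*Rsad2*), and all 9 are annotated as protein coding.

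The libraries held 19397 (PBS) and 19451 (anti–PD-1) barcodes, of which 15531 and 16360 met the limits (from 500 up to 5000 genes per cell, mitochondrial UMIs no more than 10%), with median depths of 3159 and 2990 UMIs. Classes were given by counting lineage markers in each cell, and the markers of a class were not all at like levels in the 2 libraries. *S100a9* stood at 30547 and 29127 UMIs per 1000000 UMIs of the class (CPM) in neutrophils, and *Clec4f* at 5127 and 4084 CPM in Kupffer cells against 23.4 and 90.7 CPM in macrophages. In neutrophils *Il1r2* was at 1137 and 3132 CPM and *Trem1* at 370.0 and 985 CPM, and in monocytes *Chil3* was at 7090 and 1943 CPM, *Ccr2* at 834 and 345 CPM and *Ly6c2* at 1617 and 3583 CPM. Their part in the results was not tested. The libraries stood apart in sex-linked transcripts. *Xist* had 18452 UMIs in kept cells with PBS and 11 in those with anti–PD-1, and 4 Y-linked genes stood at 39.4 and 197 CPM. A difference between the libraries can therefore not be told apart from a difference in the sex of the animals. Results are also given for cells with a Y-linked UMI and no *Xist* UMI. The libraries shared 145 barcodes among kept cells.

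All 9 genes were higher in the anti–PD-1 library in neutrophils, macrophages, monocytes, Kupffer cells, T cells, B cells, tumor or biliary cells and cancer-associated fibroblasts (CAFs), and 8 of 9 were in NK cells. Of 81 pairs of gene and class, 80 had a higher level with anti–PD-1, 72 had an interval of the ratio above 0 on the log2 scale, and 9 had an interval that included 0. The share of all genes with an interval above 0 was not computed. Counts of such intervals, here and below, therefore describe the members and do not set them apart from other genes. The median log2 ratio (anti–PD-1 over PBS, no pseudocount) was 2.57 (bounds 1.94 to 3.22) in tumor or biliary cells, 2.28 (2.06 to 2.50) in macrophages, 2.00 (1.77 to 2.39) in neutrophils, 1.76 (1.43 to 2.39) in monocytes and 1.65 (1.50 to 1.78) in Kupffer cells. CAFs had 1.45 (1.01 to 2.11), B cells 1.10 (0.33 to 1.87), T cells 1.06 (0.74 to 1.39) and NK cells 0.91 (-0.19 to 2.22). The bounds in brackets after a median, here and below, are the median of the genes' lower and the median of their upper bounds. They are a description and not a 95% interval of the median, so they do not order the classes. Tumor or biliary cells and macrophages changed places under some alternatives. These classes had 1.78 and 2.03 when a pseudocount of 5 CPM was added, and 2.22 and 2.29 with neutrophil and Kupffer RNA taken off. They had 2.29 and 2.95 in cells with a Y-linked UMI and no *Xist* UMI. In such cells the median was -0.31 in NK cells, where the direction turned, 0.23 in B cells and 3.03 in monocytes.

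**Figure D1:**
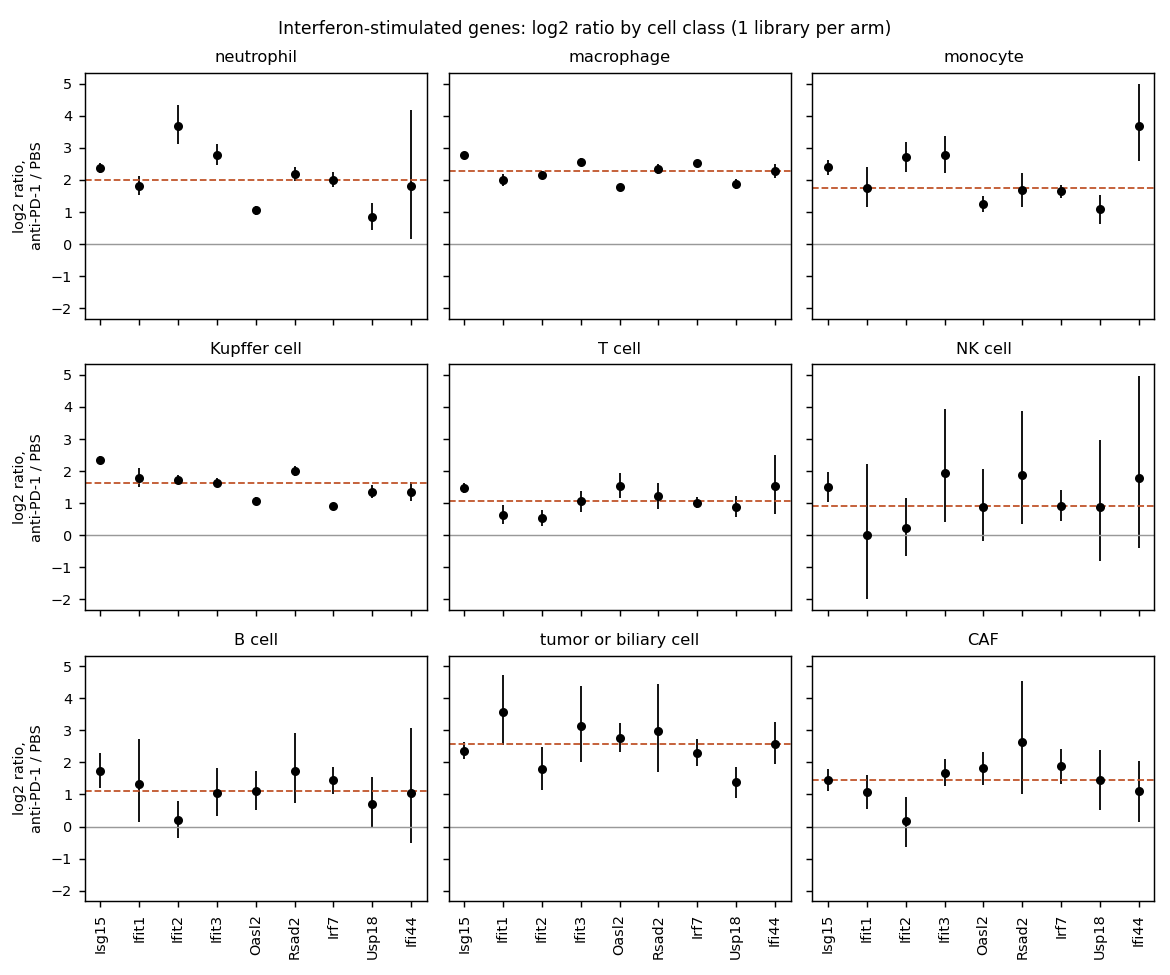
Log2 ratio of anti–PD-1 over PBS for each of 9 interferon-stimulated genes (x axis) in 9 cell classes (panels), 1 library per group. Points are ratios of CPM, bars are 95% counting intervals, the grey line marks no difference and the dashed line the median of the class, which lies between 0.91 in NK cells and 2.57 in tumor or biliary cells.

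This was not how most genes behaved. A difference past 2-fold in the higher direction was seen in 4.24% of 9463 genes with a mean of at least 10 CPM in tumor or biliary cells, where 9 of 9 interferon-stimulated genes lay past it. In macrophages it was 4.44% of all genes and 9 of 9 members, in monocytes 5.35% and 9, in neutrophils 3.84% and 8, and in Kupffer cells 3.55% and 8. In CAFs 6.11% of all genes and 8 members lay past it, in B cells 2.29% and 7, in T cells 2.19% and 6, and in NK cells 3.60% and 4. None of the 9 genes was past 2-fold lower in any of these classes, where the share of all genes past it was 8.59% in neutrophils, 1.32% in macrophages, 4.39% in monocytes, 0.581% in Kupffer cells, 1.48% in T cells, 6.55% in NK cells, 3.30% in B cells, 2.97% in tumor or biliary cells and 4.33% in CAFs. The shares of all genes rest on genes with a mean of at least 10 CPM over both libraries. This level was passed by 9 members in macrophages, monocytes and Kupffer cells and by 8 in neutrophils, T cells and CAFs. In tumor or biliary cells 7 passed, in B cells 6 and in NK cells 4, whereas the counts of members are over all 9. A gene can pass only through the library where it is higher. In tumor or biliary cells this held for *Ifit1* (1.61 and 19.0 CPM), *Ifit2* (5.47 and 19.0), *Oasl2* (9.65 and 65.5) and *Ifi44* (4.83 and 28.8). It also held for *Ifi44* in monocytes (3.04 and 39.2 CPM). The numbers of members that passed are therefore no separate support for the counts past 2-fold. The median over all genes with such a mean was itself between -0.28 (neutrophils) and 0.01 (CAFs). The members thus stood further above the median gene than above 0 in every class but CAFs.

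*Isg15* encodes a ubiquitin-like protein that is both conjugated to other proteins and secreted. In neutrophils it stood at 161 CPM (interval 145 to 180) with PBS and 833 CPM (812 to 854) with anti–PD-1, a 5.16-fold difference (4.63 to 5.77). In macrophages it went from 55.9 to 382 CPM, 6.83-fold (6.44 to 7.25). Of the 9 classes, neutrophils had the highest level in both libraries, and B cells the lowest. Monocytes had 84.3 and 442 CPM, Kupffer cells 50.3 and 256 CPM, and CAFs 69.5 and 190 CPM. T cells had 44.1 and 123 CPM, NK cells 45.4 and 128 CPM, B cells 15.7 and 51.8 CPM, and tumor or biliary cells 31.1 and 160 CPM. In the PBS library, neighbours from monocytes down to T cells had overlapping intervals, while with anti–PD-1 neutrophils, monocytes, macrophages and Kupffer cells all separated, each above the next.

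*Usp18* encodes the protease that takes ISG15 off its targets and also blocks signaling at IFNAR2. Its ratio was below that of *Isg15* in neutrophils, macrophages, monocytes, Kupffer cells, T cells and tumor or biliary cells, with intervals that did not overlap, while in NK cells, B cells and CAFs the intervals overlapped. In neutrophils it stood at 25.8 and 46.6 CPM, a log2 ratio of 0.86 (0.44 to 1.30) against 2.37 (2.21 to 2.53) for *Isg15*. It was highest in macrophages with anti–PD-1, at 84.3 CPM against 22.9 with PBS. Monocytes had 30.8 and 65.3 CPM, Kupffer cells 28.0 and 71.8, and tumor or biliary cells 12.2 and 31.7 CPM. CAFs had 10.6 and 28.9 CPM, T cells 11.5 and 21.3, and B cells 8.85 and 14.5 CPM. NK cells had only 4 and 13 UMIs (3.87 and 7.17 CPM), and there and in B cells the interval of the ratio included 0. With PBS, monocytes, Kupffer cells, neutrophils and macrophages had overlapping intervals from each to the next, and with anti–PD-1 neutrophils were the lowest of these 4 classes.

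The IFIT proteins bind foreign or aberrant RNA, and IFIT2 and IFIT3 form complexes with one another. *Ifit2* set the neutrophils apart. In neutrophils it stood at 11.9 CPM (25 UMIs) with PBS and 154 CPM (1156 UMIs) with anti–PD-1, a log2 ratio of 3.69 (3.13 to 4.33). With PBS this was below the point values of T, B and NK cells, with an interval that overlapped that of NK cells, the next above. With anti–PD-1 it was above that of monocytes, with overlapping intervals. Macrophages had 40.7 and 181 CPM, monocytes 19.4 and 126, Kupffer cells 53.3 and 178, and tumor or biliary cells 5.47 and 19.0 CPM. In lymphocytes and fibroblasts *Ifit2* differed less. T cells had 19.3 and 28.2 CPM, with a log2 ratio of 0.54 (0.29 to 0.80). NK cells had 16.4 and 19.3 CPM, B cells 17.2 and 19.8, and CAFs 25.6 and 28.9 CPM, and each of these 3 ratios had an interval that included 0. In CAFs *Ifit3* had a log2 ratio of 1.68 (1.25 to 2.11) and *Ifit2* one of 0.17 (-0.63 to 0.93), so these neighbouring genes did not move alike there.

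*Ifit3* stood at 39.6 and 272 CPM in neutrophils, 27.4 and 162 CPM in macrophages, 13.7 and 93.7 in monocytes and 55.9 and 175 in Kupffer cells. CAFs had 42.5 and 136 CPM, within the range of the myeloid classes in both libraries. T cells had 11.0 and 22.8 CPM, NK cells 3.87 and 14.9, B cells 9.84 and 20.2, and tumor or biliary cells 1.45 and 12.7 CPM. With PBS the highest *Ifit3* level was that of Kupffer cells, and with anti–PD-1 that of neutrophils. *Ifit1* stood at 45.4 and 160 CPM in neutrophils and at 33.8 and 71.5 CPM in CAFs, the 2 highest levels in both libraries, with intervals that overlapped with PBS and not with anti–PD-1. It stood at 14.0 and 56.5 CPM in macrophages, 14.1 and 47.6 in monocytes, 10.7 and 37.3 in Kupffer cells and 13.5 and 21.1 CPM in T cells. Tumor or biliary cells had 10 and 45 UMIs (1.61 and 19.0 CPM) and B cells 7 and 42 (3.44 and 8.57 CPM). NK cells were at 4 and 7 UMIs, or 3.87 and 3.86 CPM, the 1 pair that was not higher. Paralogs such as *Ifit3b* and *Ifit1bl1* may share reads with *Ifit3* and *Ifit1*, and how the counting treated such reads is not given in the sources used here.

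*Rsad2* encodes viperin, an enzyme that makes a chain-terminating nucleotide, and its level was highest in neutrophils in both libraries. It stood there at 99.3 CPM with PBS and 451 CPM with anti–PD-1, a log2 ratio of 2.18 (1.98 to 2.39). Kupffer cells had 34.8 and 140 CPM, endothelial cells, a smaller class, 41.0 and 109, macrophages 17.2 and 87.1 and monocytes 19.7 and 63.0 CPM. The other classes of the 9 were low in both libraries. T cells had 6.72 and 15.6 CPM, NK cells 3.87 and 14.3, B cells 4.43 and 14.7, CAFs 2.41 and 15.1, and tumor or biliary cells 1.13 and 8.88 CPM. In these 5 classes, taken in order of level, neighbours had overlapping intervals in either library, so neighbours could not be ordered.

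*Oasl2* encodes a relative of the oligoadenylate synthetases, which answer double-stranded RNA. It stood at 202 CPM in neutrophils with PBS, above the other classes, and at 418 CPM with anti–PD-1. Monocytes had 92.3 and 221 CPM, macrophages 63.9 and 220, Kupffer cells 72.7 and 152, and CAFs 29.0 and 102 CPM. The ratio was largest in tumor or biliary cells, which had 9.65 and 65.5 CPM, a log2 ratio of 2.76 (2.33 to 3.22). T cells had 7.34 and 21.5 CPM, NK cells 9.66 and 17.7, and B cells 13.8 and 29.6 CPM.

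*Ifi44*, an interferon-induced gene whose product is less well described, departed from several other members in neutrophils. It was near its lowest level there, at 1.43 and 5.08 CPM (3 and 38 UMIs), where *Isg15*, *Ifit1*, *Oasl2* and *Rsad2* were highest of the 9 classes in both libraries. It stood at 9.16 and 44.5 CPM in macrophages, 3.04 and 39.2 in monocytes, 11.0 and 28.3 in Kupffer cells, 11.6 and 24.7 in CAFs and 4.83 and 28.8 CPM in tumor or biliary cells. With anti–PD-1 these 5 classes lay above the neutrophils and the lymphocytes, without overlap. T cells had 1.45 and 4.20 CPM, NK cells 1.93 and 6.62, and B cells 1.97 and 4.08 CPM, the last 2 with intervals of the ratio that included 0.

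*Irf7* encodes a transcription factor that can drive the genes of interferon-α and so amplify the response. Kupffer cells had by far the most, at 269 CPM (259 to 279) with PBS and 511 CPM (501 to 521) with anti–PD-1, but their ratio was the smallest of the 4 myeloid classes at 1.90-fold (1.82 to 1.99). Macrophages had 61.6 and 354 CPM, a 5.75-fold difference (5.43 to 6.09). With anti–PD-1, macrophages, monocytes (112 and 348 CPM) and neutrophils (76.9 and 307 CPM) had levels that could not be ordered between neighbours. T cells had 41.5 and 84.0 CPM, NK cells 48.3 and 91.1, B cells 27.5 and 74.5, CAFs 25.1 and 92.1, and tumor or biliary cells 12.2 and 60.1 CPM. With anti–PD-1 the non-myeloid classes had overlapping *Irf7* intervals from each to the next.

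**Figure D2:**
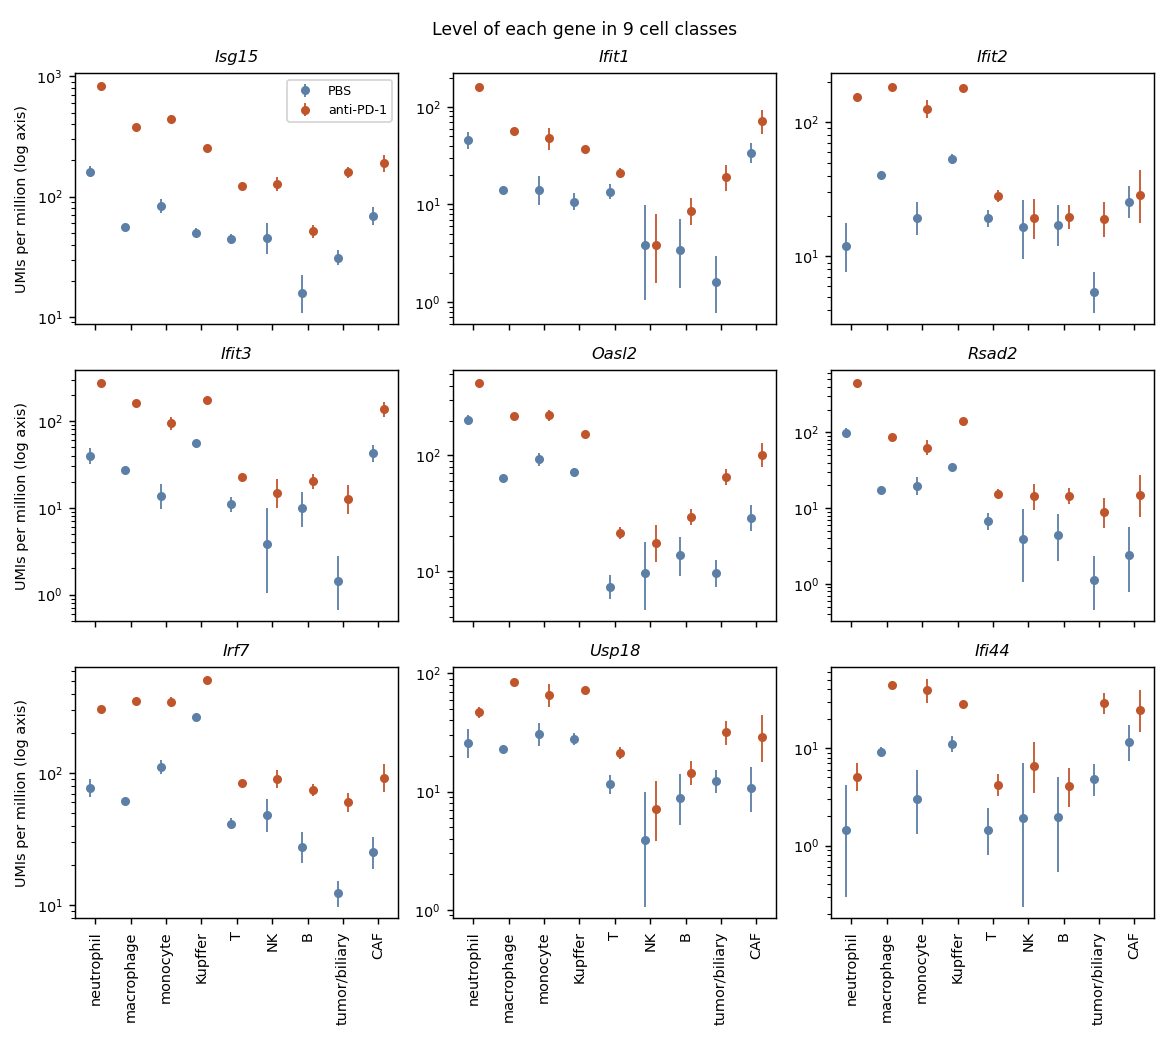
Level of each of the 9 genes in CPM (y axis, log scale) in 9 cell classes, with PBS in blue and anti–PD-1 in orange, 1 library each. Bars are exact 95% Poisson intervals of the class sums. *Rsad2* reaches 451 in neutrophils with anti–PD-1, where *Ifi44* stands at 5.08.

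The proportions of the 9 genes thus differed by cell class, and not only their amount. *Rsad2* made up 15.0% of the 9 genes' UMIs in neutrophils with PBS and 17.0% with anti–PD-1, against 1.41% and 2.19% in tumor or biliary cells. In endothelial cells it made up 15.8% and 7.07%. *Ifi44* made up 0.22% and 0.19% in neutrophils and 6.06% and 7.09% in tumor or biliary cells. *Irf7* made up 45.9% and 33.0% in Kupffer cells, and *Ifit3* 17.0% and 19.8% in CAFs. Per 100 UMIs of *Isg15* there were 54.2 of *Rsad2* in neutrophils with anti–PD-1, 54.5 in Kupffer cells, 22.8 in macrophages, 12.7 in T cells and 5.56 in tumor or biliary cells. The share of *Isg15* itself was higher with anti–PD-1 in neutrophils (24.3% and 31.5%), macrophages (17.9% and 24.3%) and Kupffer cells (8.59% and 16.5%). It was also higher in monocytes (21.7% and 30.6%), T cells (28.2% and 35.9%) and endothelial cells (18.5% and 26.4%). In NK cells (33.1% and 42.3%) and B cells (15.3% and 21.8%) the intervals overlapped. The share was close to level in tumor or biliary cells (39.0% and 39.4%) and CAFs (27.8% and 27.5%). Genes can differ in how well they are captured, so these shares are compared across classes and not between genes.

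**Figure D3:**
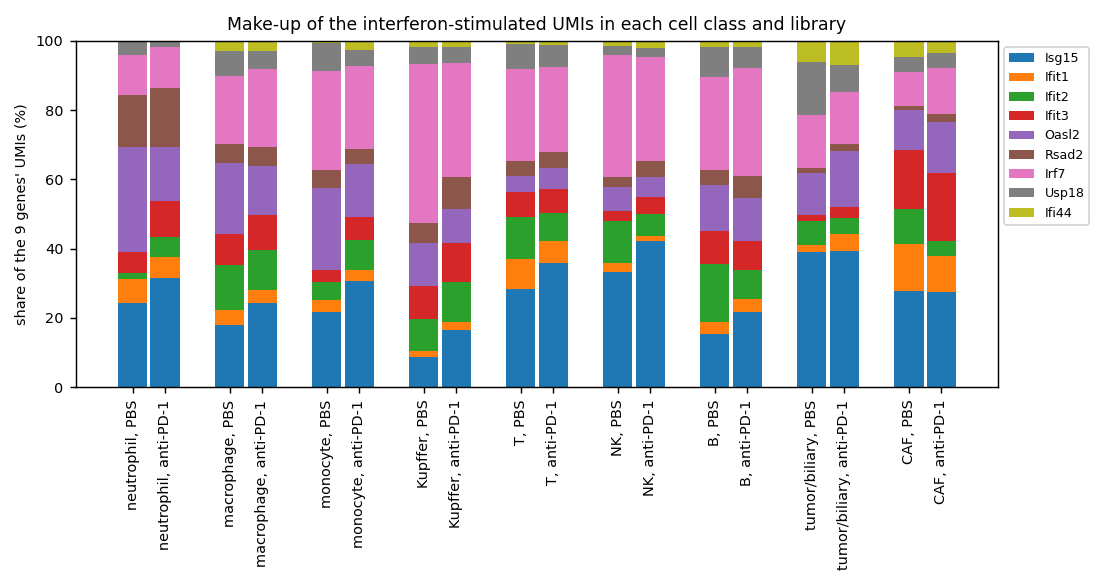
Share of the UMIs of the 9 genes taken by each gene (y axis, percent, stacked to 100) in each cell class and library. Neutrophils have a large *Rsad2* share (15.0% and 17.0%), Kupffer cells a large *Irf7* share (45.9% and 33.0%) and tumor or biliary cells a visible *Ifi44* share (6.06% and 7.09%).

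Free RNA was gauged by markers that the other classes should lack. *S100a9* in T cells, B cells, tumor or biliary cells and CAFs was between 0.12% and 0.26% of its neutrophil level with PBS and between 0.58% and 0.91% with anti–PD-1. *Clec4f* in T cells was 0.63% and 2.38% of its Kupffer cell level. Both were thus higher with anti–PD-1. In B cells, the class with the least *Isg15*, RNA in proportion to *S100a9* and to *Clec4f* came to 7.60 and 7.66 CPM of *Isg15* with anti–PD-1, of 51.8 CPM measured. With such RNA taken off, the median log2 ratio was 0.81 in B cells, 0.81 in T cells, 0.73 in NK cells and 2.22 in tumor or biliary cells. Levels and ratios of single genes, and counts of members past 2-fold, are given without this removal. With anti–PD-1, tumor or biliary cells held *S100a9* at 0.88% of its neutrophil level and *Clec4f* at 3.08% of its Kupffer cell level. *Rsad2* was at 8.88 CPM there, against 451 CPM in neutrophils and 140 CPM in Kupffer cells. How much of this or of other low values is free RNA was not tested.

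The difference was spread over many cells in the myeloid classes. To compare cells at a like depth, each cell with at least 1000 UMIs was thinned to 1000, and shallower cells were left out. This took out 114 and 85 neutrophils with PBS and anti–PD-1, 107 and 231 macrophages, 1 and 2 monocytes, 18 and 79 Kupffer cells, 32 and 21 T cells, 14 and 9 NK cells, 57 and 25 B cells, 201 and 152 tumor or biliary cells and 50 and 14 CAFs, so the part left out differed between the libraries. UMIs of 2 or more of the 9 genes were then found in 8.49% of neutrophils (6.89 to 10.3, 91 of 1072 cells) with PBS and in 37.3% (35.5 to 39.1, 1077 of 2889) with anti–PD-1. Macrophages had 4.97% (4.26 to 5.76) and 33.9% (31.3 to 36.5), monocytes 5.84% (3.69 to 8.70) and 35.2% (27.9 to 43.0), and Kupffer cells 9.70% (7.95 to 11.7) and 33.4% (31.3 to 35.6). Median depth differed between the libraries, at 1577 and 2143 UMIs in neutrophils and 7606 and 5759 UMIs in macrophages, and without thinning the shares were 14.6% and 50.9% in neutrophils and 30.7% and 66.2% in macrophages. In order of their shares, neighbouring myeloid classes had overlapping intervals in either library.

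In lymphocytes the same shares were lower, with 1.89% (1.43 to 2.46) and 4.60% (3.89 to 5.40) of T cells, 1.05% and 1.88% of NK cells, and 1.23% and 2.53% of B cells. The intervals overlapped between the libraries in NK cells and B cells. Tumor or biliary cells had 0.27% (0.06 to 0.78, 3 of 1122 cells) and 5.16% (3.48 to 7.33, 29 of 562), and CAFs 2.22% and 7.45% with overlapping intervals. UMIs of at least 1 member were found in 7.22% and 28.5% of tumor or biliary cells, and in 19.7% and 64.2% of macrophages.

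**Figure D4:**
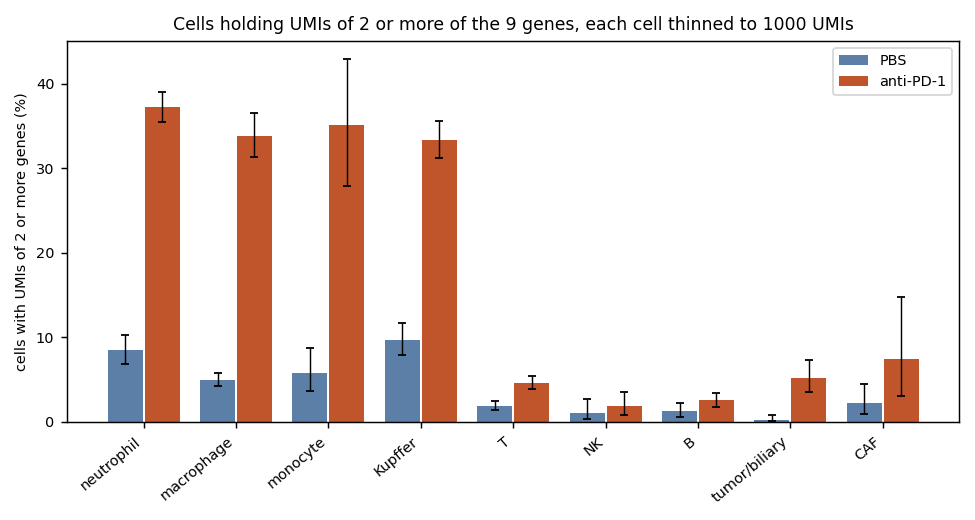
Share of cells, thinned to 1000 UMIs with shallower cells left out (up to 201 in a class and library, tumor or biliary cells with PBS), that hold UMIs of 2 or more of the 9 genes (y axis, percent) in 9 cell classes with PBS (blue) and anti–PD-1 (orange), 1 library each. Bars start at 0 and error bars are exact 95% binomial intervals. The 4 myeloid classes stand between 33.4% and 37.3% with anti–PD-1, and the other 5 classes between 1.88% and 7.45%.

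UMIs of 4 or more of the 9 genes were found in 2.24% (1.44 to 3.31) of thinned neutrophils with PBS and in 15.2% (13.9 to 16.6) with anti–PD-1, against 0.77% and 6.57% of macrophages and 0.30% and 4.43% of Kupffer cells. Monocytes had 0.80% (0.16 to 2.31) and 9.70% (5.65 to 15.3), with an interval that overlapped that of neutrophils with anti–PD-1. Endothelial cells had 0.65% (0.13 to 1.89) and 7.50% (2.80 to 15.6). Such cells were few in the other classes, with 10 and 12 T cells (0.35% and 0.39%), 3 and 2 B cells, 1 and 0 NK cells, 1 and 1 CAFs (0.32% and 1.06%) and no tumor or biliary cell. Within T cells, CD4 T cells had 6 with PBS (0.77%, 0.28 to 1.66) and 3 with anti–PD-1 (0.34%). In neutrophils with an *Isg15* UMI, 53.7% with PBS and 80.1% with anti–PD-1 held a UMI of another member, against 21.9% and 36.9% of neutrophils without. The members thus tended to be found in the same neutrophils, and likewise in the same macrophages and T cells. Macrophages had 43.7% against 16.0% with PBS and 69.3% against 50.5% with anti–PD-1. T cells had 31.2% against 8.49% and 28.6% against 15.8%. In the other classes compared, the intervals of the 2 values overlapped in at least 1 library. In NK cells with anti–PD-1 the values were 8.33% (2.76 to 18.4) of cells with an *Isg15* UMI and 17.1% (13.7 to 21.1) of cells without, and in CAFs with anti–PD-1 30.8% (9.09 to 61.4) and 38.3% (27.7 to 49.7). In monocytes with PBS they were 24.2% (11.1 to 42.3) and 19.8% (15.7 to 24.4). The 5% of cells with most member UMIs held 49.7% of these UMIs in neutrophils with PBS and 29.9% with anti–PD-1, and 51.9% and 25.2% in macrophages.

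Within T cells, CD8 T cells had *Cd8a* or *Cd8b1* detected and no *Cd4*, and CD4 T cells had *Cd4* and neither of the others. The remaining T cells had both kinds of marker or none, so they are a mixture. The median log2 ratio was 1.03 (0.53 to 1.55) in CD8 T cells, 0.67 (0.08 to 1.10) in CD4 T cells and 1.65 (1.07 to 2.23) in the remaining T cells. All 9 genes were higher in each, with intervals above 0 for 8, 6 and 7 genes. *Isg15* stood at 42.8 and 99.6 CPM in CD8 T cells, 45.7 and 134 CPM in CD4 T cells and 43.9 and 149 CPM in the remainder. Past 2-fold higher were 5 members in CD8 T cells (2.44% of all genes), 3 in CD4 T cells (2.77%) and 7 in the remaining T cells (2.88%), and past 2-fold lower none (2.08%, 2.41% and 2.26% of all genes).

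Of the classes with fewer than 100 cells in a library, endothelial cells (502 and 88 cells) had all 9 genes higher with intervals above 0 and a median log2 ratio of 2.53 (1.77 to 3.27), all past 2-fold (5.16% of all genes higher, 7.27% lower). *Isg15* stood there at 48.2 and 406 CPM. *Ifi44* stood at 43.8 and 182 CPM, the highest level of any class with anti–PD-1. A share of 32.5% (22.5 to 43.9) of thinned endothelial cells held 2 or more members with anti–PD-1, against 3.25% (1.83 to 5.30) with PBS. In conventional dendritic cells (103 and 29 cells) 4 genes had an interval above 0 and 5 lay past 2-fold higher (8.99% of all genes, and 16.2% lower), with *Isg15* at 53.4 and 175 CPM. Plasma cells (98 and 56 cells) had 10 and 110 UMIs of *Isg15*, or 7.13 and 106 CPM, and 7 members past 2-fold higher (9.53% of all genes, and 3.49% lower). Only 2 members reached the mean of 10 CPM there on which these shares rest, and 5 had an interval above 0. Hepatocytes (79 and 18 cells) had 12 and 16 UMIs of *Isg15* and 6 members past 2-fold higher, where 20.2% of all genes were higher and 13.1% lower by as much.

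Plasmacytoid dendritic cells are the classical producers of interferon-α. With only 65 and 41 cells, their median log2 ratio, over the 7 genes with a ratio, was -0.04 (-1.07 to 0.98). *Irf7*, which they are known to hold at all times, stood at 185 CPM (60 UMIs) with PBS and 251 CPM (61 UMIs) with anti–PD-1, and *Isg15* at 77.2 and 90.6 CPM. *Usp18* had 19 UMIs with PBS and 3 with anti–PD-1 (58.6 and 12.4 CPM), a log2 ratio of -2.25 (-4.65 to -0.48). *Ifi44* was high in both libraries, at 67.9 and 65.9 CPM. In this class 14.7% of all genes lay past 2-fold lower, and 2 of the 9 members did, *Usp18* and *Ifit2* (8 and 2 UMIs), while 8.84% of all genes and 1 member, *Rsad2* (1 and 6 UMIs), lay past 2-fold higher. *Ifit1* had no UMI there in either library, which allows up to 3 counts in each.

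The ligands themselves were scarcely seen. Of 18 type I interferon genes with a row, 4 had a UMI with PBS and 6 with anti–PD-1, for 21 and 71 UMIs in all. *Ifnb1*, the gene of interferon-β, had 11 UMIs with PBS, all in macrophages, and 58 with anti–PD-1, of which 33 were in macrophages and 12 in Kupffer cells. In macrophages this was 0.39 and 3.22 CPM, a log2 ratio of 3.06 (2.04 to 4.19). *Ifna2* had 1 and 7 UMIs, all in macrophages. *Ifnab* had 2 and 1, *Ifnz* 7 and 1, and *Ifne* and *Ifnk* had none with PBS and 1 and 3 with anti–PD-1. *Ifng*, the gene of interferon-γ, was far more abundant, with 1483 and 5205 UMIs in all kept cells. It stood at 83.8 and 207 CPM in T cells and at 200 and 453 CPM in NK cells, a log2 ratio of 1.31 (1.19 to 1.42) and 1.18 (0.96 to 1.41).

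The list of 10 receptor and signaling genes had a median log2 ratio between -0.20 in macrophages and 0.37 in CAFs, although single genes were higher in single classes. *Ifnar1* stood at 118 and 91.3 CPM in macrophages and 78.8 and 54.1 CPM in neutrophils, and *Ifnar2* at 191 and 172 CPM and 118 and 112 CPM. In T cells *Ifnar1* was at 56.1 and 80.8 CPM and *Ifnar2* at 72.3 and 59.9 CPM, and in NK cells *Ifnar1* had a log2 ratio of 0.88 (0.38 to 1.41). *Jak1* had log2 ratios of -0.34 in macrophages, -0.21 in neutrophils and -0.05 in T cells. *Tyk2* had -0.23, 0.29 and -0.45, and *Jak2*, which serves the interferon-γ receptor, 0.45, -0.91 and 0.35.

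*Stat2*, which takes part in the complex at the ISRE, had log2 ratios of 0.98 in macrophages, 1.34 in neutrophils, 1.50 in tumor or biliary cells, 1.13 in CAFs and 0.17 (-0.02 to 0.35) in T cells. *Irf9* had 0.12 (-0.02 to 0.24) in macrophages, 0.47 in neutrophils, 0.94 in tumor or biliary cells and 1.20 in CAFs. The receptor chains for interferon-γ were lower in macrophages, with log2 ratios of -0.50 for *Ifngr1* and -0.32 for *Ifngr2*, while *Ifngr2* was higher in T cells at 1.06 (0.80 to 1.32).

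Of 12 nucleic acid sensors and their partners with a value, 9 were higher in macrophages (median 0.29), 8 in tumor or biliary cells (0.64), 8 in Kupffer cells (0.18), 6 in neutrophils (0.09) and 5 in T cells (-0.07). In monocytes 6 were higher (0.001), in B cells 5 (-0.12), in NK cells 4 of 11 (-0.11) and in CAFs 7 of 11 (0.01). The share of all genes that were higher was not computed. Their median, for genes with a mean of at least 10 CPM, lay between -0.28 in neutrophils and 0.01 in CAFs. *Zbp1*, a sensor of Z-form nucleic acid that is itself interferon-stimulated, was the highest of the list in macrophages at 51.8 and 237 CPM, and in tumor or biliary cells at 6.11 and 86.3 CPM. *Ddx58* and *Ifih1*, the genes of the RNA sensors RIG-I and MDA5, followed in macrophages with log2 ratios of 0.97 and 0.93. *Mavs*, *Irf3* and *Tlr7* were the lowest there, at -0.51, -0.44 and -0.17. Among 6 negative regulators with a value in macrophages, *Socs3* (117 and 400 CPM), *Socs1* (20.8 and 58.1 CPM) and *Adar* (46.4 and 61.6 CPM) had the highest ratios, and *Pias1* the lowest at -0.23.

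A list of 28 other interferon-stimulated genes with a value was higher as well, with all 28 in neutrophils (median 1.27, 19 past 2-fold), macrophages (1.42, 19) and tumor or biliary cells (1.64, 23), 26 in B cells (0.71, 7), 23 in T cells (0.62, 9) and 19 in NK cells (0.37, 8, and 2 past 2-fold lower). Over all genes with a UMI, with no filter, the share past 2-fold in either direction was 29.2% in neutrophils, 20.8% in macrophages, 18.7% in tumor or biliary cells, 23.2% in B cells, 19.6% in T cells and 21.3% in NK cells. The counts before it are of the higher direction unless said. Among genes with a mean of at least 10 CPM over both libraries, those past 2-fold higher were 17 of 26 in neutrophils (3.84% of all genes) and 18 of 27 in macrophages (4.44%). They were 4 of 22 in T cells (2.19%) and 3 of 20 in NK cells (3.60%). The highest in neutrophils were *Xaf1*, *Ifi204* and *Herc6*, with log2 ratios of 2.38, 2.35 and 2.21, and the lowest *Samd9l*, *Lgals3bp* and *Eif2ak2*, at 0.45, 0.50 and 0.56. In macrophages *Oasl1*, *Ifit3b* and *Oas3* led with 3.26, 2.43 and 2.26. In T cells *Ifi204*, *Ifi27l2a* and *Ifitm3* led with 1.37, 1.37 and 1.29, and *Ifit1bl1*, *Slfn5* and *Isg20* were the lowest at -0.43, -0.40 and -0.08. The 3 leaders and 3 lowest of a list were taken among genes with a mean of at least 10 CPM.

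Genes that respond mainly to interferon-γ had medians close to or above those of the members in non-lymphoid classes. Their median was 3.03 in tumor or biliary cells (16 of 16 higher), 2.36 in macrophages (16 of 16), 2.29 in monocytes (15 of 15), 1.98 in Kupffer cells (17 of 17), 1.84 in neutrophils (13 of 16) and 1.84 in CAFs (14 of 15). It was lower than that of the 9 genes in T cells (0.46), NK cells (0.27) and B cells (0.52), but in CD4 T cells alone it was 0.88 beside 0.67 for the members. *Cxcl9*, the gene of a chemokine that draws T cells, stood at 8.05 and 688 CPM in tumor or biliary cells, and the GTPase gene *Iigp1* at 12.9 and 304 CPM. In neutrophils *Tgtp1* and *Tgtp2* led with log2 ratios of 3.91 and 3.77, and in Kupffer cells *Serpina3g* led with 3.81. The members do not separate the response to one interferon from the response to the other, since several of them respond to both.

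**Figure D5:**
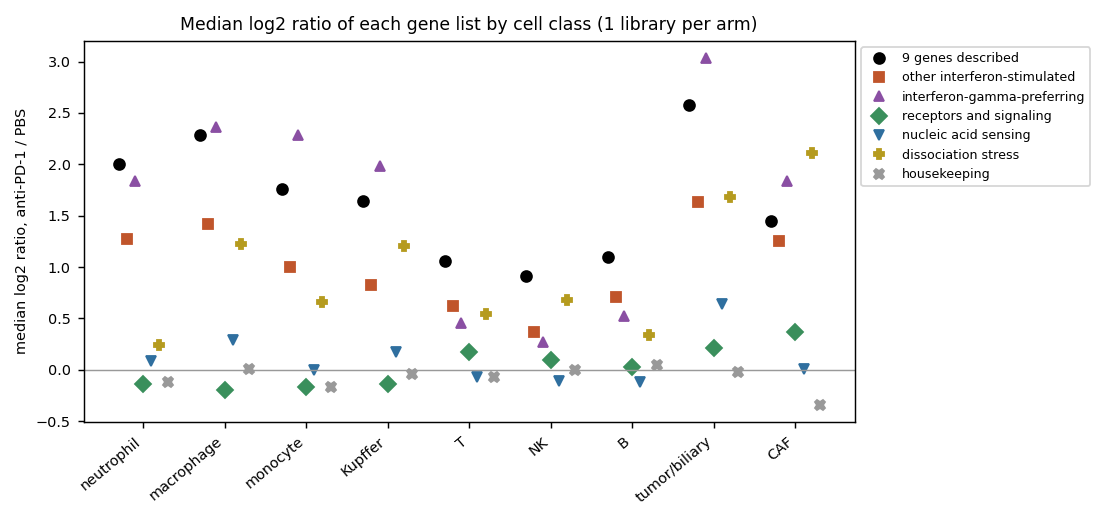
Median log2 ratio of anti–PD-1 over PBS (y axis) for 7 gene lists in 9 cell classes, 1 library per group, over all genes of a list with a value. The 9 genes described (black) lie between 0.91 and 2.57, interferon-γ-preferring genes reach 3.03 in tumor or biliary cells, and dissociation-stress genes reach 2.11 in CAFs.

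Genes induced by tissue dissociation moved with the interferon-stimulated genes in several classes. Of 16 such genes, 16 were higher in CAFs (median 2.11), tumor or biliary cells (1.69), macrophages (1.22), Kupffer cells (1.20) and T cells (0.54), 15 in NK cells (0.68), 14 in B cells (0.34), 13 in monocytes (0.66) and 9 in neutrophils (0.24). *Fos* stood at 164 and 1731 CPM in CAFs, and *Atf3* at 82.5 and 1016 CPM in tumor or biliary cells. In neutrophils *Jun* had 1345 and 348 CPM, a log2 ratio of -1.95, beside a member median of 2.00. Their part in the result was not tested. Housekeeping genes had medians between -0.34 in CAFs and 0.05 in B cells.

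In cells with a Y-linked UMI and no *Xist* UMI, the median log2 ratio of the members was 2.95 (2.64 to 3.19) in macrophages, 2.30 (1.52 to 2.72) in Kupffer cells, 2.29 (0.77 to 5.06) in tumor or biliary cells and 2.02 (1.47 to 4.37) in neutrophils. In lymphocytes it was 0.77 (-0.07 to 1.74) in T cells, 0.23 (-1.29 to 2.42) in B cells and -0.31 (-1.90 to 2.36) in NK cells, with 60 and 224 cells in the last. With PBS such cells were few, 77 of 1186 neutrophils and 60 of 394 NK cells, and whether some hold free Y-linked RNA or undetected *Xist* was not tested.

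The genes whose levels most resembled the mean of the 9 genes were found over 22 sums (11 cell classes, with T cells split, in both libraries) among 9553 other genes. As a description, since the sums share libraries and depth, the highest Pearson correlations of log2(CPM + 5) were those of *Rtp4* (0.96), *Gbp2* (0.93), *Cmpk2* (0.92), *Ccrl2* (0.92) and *Ifit3b* (0.91), followed by *Ptgs2* (0.91), *Tiparp* (0.90), *Il1b* (0.89), *Cxcl2* (0.89) and *Cebpb* (0.89). Of these, *Rtp4*, *Gbp2*, *Cmpk2* and *Ifit3b* are interferon-stimulated genes of the lists above, and *Ptgs2*, *Il1b* and *Cxcl2* are inflammatory genes of myeloid cells. The members themselves correlated with their mean at 0.68 (*Ifi44*) to 0.94 (*Ifit3*). Each member is part of that mean, so these values are not like those of the other genes. *Rsad2* and *Ifi44* were the least alike pair of members, at 0.36.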

How the data were processed

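Cells of tumor-bearing livers were profiled with Singleron GEXSCOPE chemistry. UMI counts per gene and barcode, deposited by the authors as whole numbers without normalization, were used. The authors made them with Cell Scope (Singleron) on mm10, and the version, annotation and use of strand are not given in the sources used here. The submitters' processing notes name Seurat 4.3, which these counts do not reflect. Kept cells had from 500 up to 5000 genes detected and no more than 10% of UMIs from mitochondrial genes.

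Each kept cell took the lineage with most detected markers, of 7 to 10 per lineage, where at least 3 were detected and the lead over the next lineage was at least 2. This placed 82.8% (PBS) and 79.1% (anti–PD-1) of kept cells. A lead of exactly 2 held for 1795 and 2040 cells, and a lead of 1, which left a cell out, for 1612 and 2078. Phagocytes with at least 3 of 6 Kupffer markers were called Kupffer cells, and the rest macrophages or monocytes by marker count. The thresholds were set after seeing the cells. No clustering and no doublet caller was run, so doublets are left out only where markers of another lineage reduce the lead. Classes with at least 100 cells in both libraries were compared, and smaller ones are given as values.

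UMIs were summed per class and library and divided by the class total, with exact Poisson intervals. Ratios were taken without a pseudocount and have exact conditional binomial intervals, shares have exact Clopper-Pearson intervals, and a count of 0 was set to a floor of 3 counts. These intervals are at 95% and, like the floor, cover counting error only. The bounds beside a median over genes are the medians of the genes' bounds. With 1 library per group no p-value was computed. The calculation was tested on simulated counts. The 10 genes and the other lists were chosen with earlier results of these data known. The genes with a row were described in each of the 9 classes. Receptors, signaling genes (1 is not reported here) and ligands with a UMI were named in the classes described, and of the other lists up to 3 genes from either end of the ratios, and the 10 genes most like the members. Alternatives were tried for scaling, pseudocount, cell limits, gate, thinning, gene filter, sex-linked UMIs and the *Ifit* paralogs, and 1, the removal of free RNA, was added after seeing the data. Positions are from GENCODE vM21 (GRCm38). Python 3.11.15, numpy 2.4.6, scipy 1.17.1 and pandas 2.3.3 were used.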

Additional observations from a re-analysis of the deposited data

Results flagged for a closer look

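*Usp18* in plasmacytoid dendritic cells had a log2 ratio of -2.25, from 19 UMIs with PBS and 3 with anti–PD-1, while its interval lay above 0 in 11 other classes. It stands out because the direction is opposite between cell classes. In this class of 65 and 41 cells, however, 14.7% of all genes lay past 2-fold lower. The difference between classes was not tested.

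The median log2 ratio of the 9 genes was 1.93 (1.49 to 2.12) in kept cells that no gate took, 2670 with PBS and 3418 with anti–PD-1. It was 2.57 (2.31 to 2.85) in the 3866 and 3091 barcodes outside the limits on detected genes and mitochondrial UMIs. Neither group of barcodes entered the comparisons above, and in both *Isg15* was higher with anti–PD-1, at 52.0 and 240 CPM and at 27.3 and 134 CPM.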

How the results depend on the processing

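With 1 library per group, leaving out a replicate was not possible, and every value above rests on 1 PBS and 1 anti–PD-1 library. No paired analysis was possible because each group has 1 library and no test was made. The median log2 ratio of the members stayed within its genes' median bounds in all 9 classes with up to 20% mitochondrial UMIs, without an upper limit on detected genes, with gates on thinned cells, and with neutrophil and Kupffer RNA taken off, the last chosen after seeing the data. Over the alternatives it ranged from 1.90 to 2.39 in neutrophils and from 1.36 to 2.11 in CAFs. With a pseudocount of 5 CPM it was 2.03 in macrophages, 1.43 in Kupffer cells and 1.78 in tumor or biliary cells. With the stricter gate, which leaves few cells, it was 2.05 in macrophages, 1.10 in monocytes, 2.01 in Kupffer cells and 0.53 in T cells. Among cells holding Y-linked UMIs but none of *Xist* it was 2.95 in macrophages, 3.03 in monocytes, 2.30 in Kupffer cells, 0.23 in B cells and -0.31 in NK cells, where the direction turned. In Kupffer cells it was 1.79 with median-of-ratios scaling and 1.36 without *Ifit1* and *Ifit3*. The cause of these moves was not tested.

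Shares of cells with 2 or more members depend on depth. Without thinning they were, with PBS and anti–PD-1, 14.59% and 50.91% in neutrophils, 30.66% and 66.19% in macrophages, 35.98% and 71.26% in monocytes, 62.94% and 84.14% in Kupffer cells, 5.789% and 21.96% in T cells, 4.315% and 17.38% in NK cells, 2.313% and 10.77% in B cells, 4.535% and 18.49% in tumor or biliary cells, and 13.15% and 45.37% in CAFs. Thinned to 2000 UMIs they were, in the same order, 20.82% and 51.7%, 10.66% and 58.01%, 15.34% and 48.08%, 23.41% and 58.67%, 3.024% and 10.7%, 3.175% and 7.969%, 2.624% and 7.13%, 1.538% and 13.44%, and 6.855% and 18.99%. The share was higher with anti–PD-1 in each class at either setting. Without the filter on low values, the share of all genes past 2-fold in either direction was 29.17%, 20.78%, 22.65%, 20.12%, 19.58%, 21.3%, 23.17%, 18.73% and 20.58% in that order of classes. This bears on how the members' counts are read, since members at low levels pass 2-fold more readily.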
